A study of Mus musculus with 14 samples.

Results

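The comparison set ventricles of GX mice against ventricles of wild-type (WT) mice after an injection of vehicle, and used 7 of the 14 libraries of the series. The libraries were chosen by genotype and treatment. They came from 4 male mice of genotype GX/GX, in which both copies of a cardiac sodium channel gene carry the change called GX, and from 3 male WT mice, and all 7 had received DMSO by intraperitoneal injection 4 h before the tissue was taken. The other libraries came from 5 GX and 2 WT males that received MRL5 instead, a compound known only by its code name that blocks the GX form of the channel. Strain and age were not given in the sources used here. Each library is labelled as a separate mouse, and replicate numbers only name the mice.

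Voltage-gated sodium channels carry the inward current that starts each heartbeat in working heart muscle and passes it from cell to cell. Potassium channels end the action potential, calcium handling proteins turn it into contraction, and the intercalated disc joins neighbouring cells both mechanically and electrically. GX and WT mice under vehicle show what the GX change itself goes with in the ventricle, before any compound is given. Values summed per gene cannot show the GX change itself.

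The deposited values are a signal in scaled reads per base, with column sums between 17244042 and 22163644 in the 14 libraries, and the read depth is unknown. Mitochondrial genes held 41.7% to 49.7% of the signal in GX libraries and 40.6% to 44.6% in WT libraries. The median correlation over 11680 genes was 0.984 among GX libraries, 0.984 among WT libraries and 0.984 between them. Ventricular markers were high in all 7 libraries. The 4 tested male-linked genes were present in all 7. Myl7, the atrial light chain of myosin, stood at 4.42, 13.2, 643 and 0 in GX libraries, against 8.04, 3967 and 6.90 in WT libraries. GX replicate 3 and WT replicate 2 thus carried far more of this atrial transcript than the others. The library names add a split: WT replicates 2 and 3 belong to a set numbered 174, while all GX libraries and WT replicate 1 belong to a set numbered 148. Within set 148 the names of WT replicate 1 and GX replicate 4 end in index number 0, and those of the other GX libraries in 82, 85 and 87. The index series splits set 148 by whether this number is 0. Values within set 148 compare 4 GX libraries with 1 WT library. Genotype and library set can be told apart here only through WT replicate 1 and the MRL5 libraries. Many results are therefore given beside their value with library set as a covariate. Where no such value is given, the difference is not adjusted for the set. What distinguishes the library sets is not stated.

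No gene passed the test between GX and WT ventricles under DMSO. Of 14155 genes tested with limma, 0 had a Benjamini-Hochberg adjusted p under 0.05 (0.0%), and the smallest adjusted p was 0.866. At an unadjusted p under 0.05 there were 801 genes (5.66%), of which 417 (2.95%) had higher values in GX and 384 (2.71%) lower values. Every GX library lay above every WT library for 481 genes (3.4%), and below every WT library for 569 genes (4.02%). These shares are the background against which each gene list below is read, and an unadjusted p under 0.05 serves only to rank genes. In this fit to all 14 libraries, the adjusted p under DMSO was 0.866 or above for every gene named below. With only the 7 DMSO libraries in the fit, 0 genes passed and the smallest limma adjusted p was 0.0836. With column sums made equal, the split of genes under 0.05 became 94 higher and 720 lower, and with mitochondrial genes left out of the sums 271 higher and 514 lower. The median fold change of all genes was -0.02 on the log2 scale as deposited and -0.11 with equal column sums.

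The precision of the comparison bounds what it could miss. The bounds of the 95% interval lay a median of 0.38 from the estimate on the log2 scale, and the interval lay within a 2-fold change in both directions for 11193 of 14155 genes (79.1%). Among the 11068 genes with a mean value of at least 30, the interval lay within 2-fold for 10331 (93.3%). A difference of 1 or more on the log2 scale was seen for 353 genes (91 higher and 262 lower), of which 283 had a mean value under 30. Most of the abundant genes of the ventricle therefore had an interval that leaves no room for a 2-fold difference between these groups of libraries. The intervals come from the fit without library set, so they do not bound the genotype difference apart from the set. Tnnt2, the cardiac troponin T that anchors the troponin complex, had values of 166083, 157669, 156947 and 167419 in GX libraries, against 159315, 157737 and 156171 in WT libraries (log2 fold change 0.04, 95% interval -0.17 to 0.24).

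The 12 genes with the smallest p among those with higher values in GX and no overlap had fold changes between 0.38 and 2.14 on the log2 scale. Each had the same sign with library set as a covariate. The choice of genes already required all GX libraries to lie above WT replicate 1, of set 148. The sign within that set was thus fixed by the choice, and the kept sign is no separate check. Values in parentheses are log2 fold changes with their standard errors (SE). Ints4, a subunit of the Integrator complex that processes small nuclear RNAs, had values of 344, 354, 305 and 344 in GX libraries, against 257, 197 and 205 in WT libraries (log2 fold change 0.62 ± 0.13 SE). The gene lies on chromosome 7 (97480956 to 97541395, plus strand) of build GRCm38 in GENCODE M21. The WT library nearest to GX was the one of set 148, and with library set as a covariate the fold change was 0.38. Fbxl22, an F-box protein of the cardiac Z-disc, had values of 1614, 1634, 1618 and 1693 in GX libraries, against 1338, 1097 and 1002 in WT libraries (0.53 ± 0.11). Its GX libraries differed by less than its WT libraries did, and the covariate brought the fold change to 0.31. Tial1, an RNA-binding protein of stress granules, had values of 470, 475, 419 and 455 in GX libraries, against 361, 331 and 356 in WT libraries (0.38 ± 0.09). It moved little with the covariate, to 0.36. Cox19, which takes part in the assembly of cytochrome c oxidase, had values of 360, 328, 329 and 413 in GX libraries, against 258, 200 and 225 in WT libraries (0.65 ± 0.16).

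Both aquaporins among the 12 are channels for water, and Aqp7 also passes glycerol, a fuel of the heart. Aqp7 had values of 249, 261, 267 and 196 in GX libraries, against 162, 151 and 141 in WT libraries (0.67 ± 0.17). Aqp8 had values of 59.5, 50.1, 54.8 and 92.1 in GX libraries, against 31.3, 25.01 and 42.5 in WT libraries (0.93 ± 0.25). Apoa2, an apolipoprotein of high-density lipoprotein made mainly by the liver, was low in all libraries, at 18.3, 61.5, 24.4 and 17.2 in GX and 6.24, 8.54 and 8.75 in WT. GX replicate 2 stood well above the others for Apoa2, and the groups did not overlap. Pcdhgc4, a clustered protocadherin of cell adhesion, had values of 333, 205, 216 and 371 in GX libraries, against 24.8, 130 and 69.4 in WT libraries. Pcdhga7 of the same cluster was among the genes with lower values, at 70.9, 57.0, 42.6 and 49.7 in GX libraries and 87.5, 126 and 90.9 in WT libraries. Genes of this cluster share their last exons, so the division of reads between them is uncertain. The others were Spef1, a protein of cilia and microtubules, Ntan1, an amidase of protein degradation, Rhob, a small GTPase, and Sar1b, a GTPase of vesicle export, with fold changes between 0.39 and 0.47.

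The 12 genes with lower values in GX and no overlap had fold changes between -2.41 and -0.38. Aff3, a transcriptional elongation factor, had values of 22.3, 18.6, 24.4 and 29.96 in GX libraries, against 80.99, 62.2 and 38.2 in WT libraries (-1.26 ± 0.26). Aff3 lies on chromosome 1 (38177326 to 38664955, minus strand). The gap was widest to the WT library of set 148, and with the covariate the fold change was -1.40. Fam126a, a partner of the lipid kinase that makes phosphatidylinositol 4-phosphate at the plasma membrane, had values of 327, 306, 339 and 287 in GX libraries, against 412, 460 and 456 in WT libraries (-0.49 ± 0.11). Ddx1, an RNA helicase, had values of 249, 276, 233 and 237 in GX libraries, against 338, 300 and 334 in WT libraries (-0.38 ± 0.10). Both sets of WT libraries lay above GX for these genes, as the choice of genes without overlap requires. Lcn2, an iron-binding acute phase protein, had values of 70.5, 59.4, 37.4 and 49.9 in GX libraries, against 103, 170 and 181 in WT libraries (-1.45 ± 0.39). The covariate brought the fold change of Lcn2 to -0.78. R3hcc1l, whose name records only a likeness to another protein, stood between 48.96 and 70.5 in GX libraries and between 87.6 and 113 in WT libraries. Several of the 12 were near the floor of the table. E2f8, a repressor of the cell cycle, had values between 3.34 and 10.7 in GX libraries and between 13.8 and 38.9 in WT libraries. Dusp14, a phosphatase of MAP kinases, was listed at 0 in GX replicates 1 and 2 and at 1.66 and 7.79 in the other GX libraries, against 9.19, 12.8 and 10.4 in WT libraries. Grik2, a subunit of kainate receptors, stood between 3.87 and 10.7 in GX libraries and between 14.9 and 27.1 in WT libraries, and Ntn3, a netrin, between 7.33 and 13.5 in GX libraries and between 22.8 and 29.4 in WT libraries. Cep162, a protein of the centriole, stood between 30.9 and 36.1 in GX libraries, against 42.8 in the WT library of set 148 and 96.8 and 147 in the WT libraries of set 174.

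**Figure D1:**
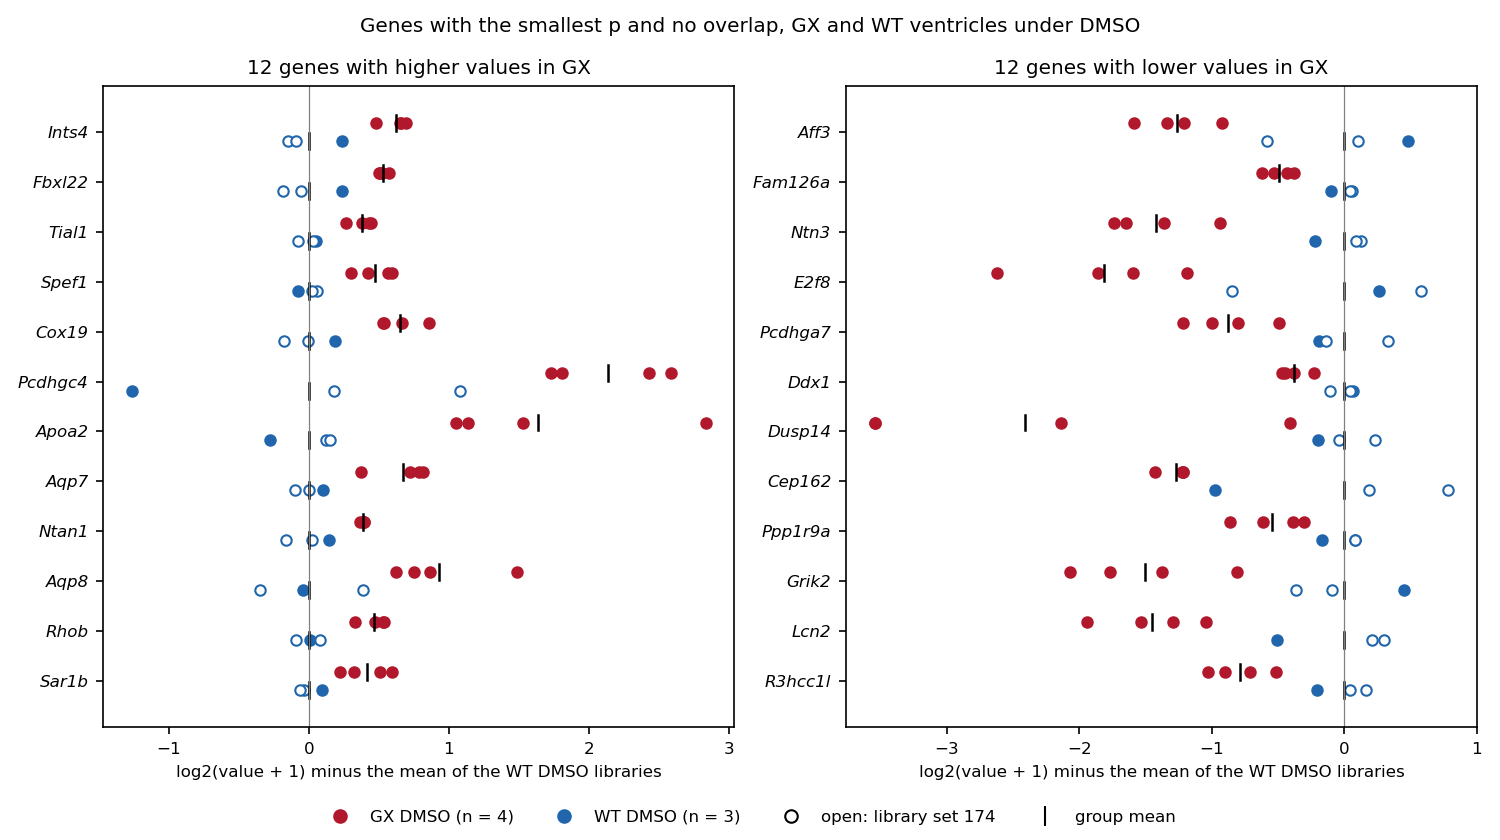
Values of the 24 genes in the 7 DMSO libraries, as log2(value + 1) minus the mean of the WT libraries (x axis), with GX points above WT points in each row and black bars for group means. Filled points are libraries of set 148 and open points those of set 174; for Ints4 and Fbxl22 the filled WT point is the one nearest to GX, while for Aff3 and Grik2 it is the farthest.

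The sodium channel list holds pore-forming subunits, auxiliary beta subunits and intracellular FGF-type partners. None of its 11 tested genes had a p under 0.05, and their median fold change was -0.06 in log2. Scn4b, a beta subunit, had values of 1457, 2007, 867 and 1017 in GX libraries, against 1269, 1050 and 1304 in WT libraries (0.08, 95% interval -0.41 to 0.56). Fgf13, which binds the tail of the channel, had values of 471, 322, 424 and 469 in GX libraries, against 512, 455 and 514 in WT libraries (-0.24, -0.55 to 0.06). The groups overlapped for both. Among 19 anchoring and trafficking partners, Rangrf, which helps bring the channel to the cell surface, was the only one under 0.05, with higher values in GX (0.30 ± 0.12), and all 19 intervals lay within 2-fold.

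Repolarising potassium channels held 6 of 23 tested genes with a p under 0.05 (2 with higher and 4 with lower values in GX), and their median fold change was -0.01. The inward rectifier Kcnj2, which holds the resting potential of ventricular cells, had values of 974, 858, 829 and 567 in GX libraries, against 1099, 991 and 1200 in WT libraries (-0.47 ± 0.19). No GX library reached a WT library, and the value with the covariate was -0.32. Kcnj5, a subunit of the acetylcholine-activated channel, had values of 955, 937, 907 and 787 in GX libraries, against 863, 1237 and 1255 in WT libraries (-0.30 ± 0.12). The WT library of set 148 lay among the GX libraries, and the covariate brought the difference to -0.09. Kcna4, a transient outward channel, was low, at 5.48, 3.67, 12.5 and 5.77 in GX libraries and 11.3, 18.9 and 33.0 in WT libraries (-1.48 ± 0.42). Kcnk3, a leak channel of the two-pore family, had values of 3720, 3733, 3296 and 3589 in GX libraries, against 3317, 2558 and 3151 in WT libraries (0.26 ± 0.11), and Kcnk1 of the same family stood under 16 in all 7 libraries. The channel accessory subunit Kcnip2 differed by 0.03, with an interval of -0.21 to 0.28.

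Genes of the pacemaker and conduction system had lower values in GX in 16 of 20 cases, and the median log2 fold change was -0.31. Hcn4, the main pacemaker channel, was the only one under 0.05. It had values of 186, 175, 314 and 213 in GX libraries, against 248, 441 and 357 in WT libraries (-0.65 ± 0.25). The WT library of set 148 lay inside the GX range, and both WT libraries of set 174 lay above it. Under MRL5 the difference of Hcn4 was -0.63 ± 0.27. The highest GX value and the highest WT value of Hcn4 were those of the 2 libraries with the most Myl7. WT replicate 2 held the highest value of the 7 libraries for 11 of the 20 genes. With library set as a covariate the median of the list was 0.004, without WT replicate 2 it was -0.09, and without both libraries of highest Myl7 it was -0.29. In bulk tissue, fewer cells of a type and less RNA per cell cannot be told apart.

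Among calcium handling genes, 1 of 27 tested had a p under 0.05, and the median fold change was 0.01. That gene was Pln, the phosphoprotein that restrains the calcium pump of the sarcoplasmic reticulum, with values of 48588, 53466, 50423 and 49305 in GX libraries, against 56714, 56804 and 61147 in WT libraries (-0.21 ± 0.10). All GX libraries lay below all WT libraries, and the value with the covariate was -0.16. The pump Atp2a2 itself differed by -0.07 (95% interval -0.29 to 0.15), and Casq2, the calcium buffer of the reticulum, by 0.01 (-0.18 to 0.20). Sri, which modulates calcium release, lay higher in GX without overlap (0.34 ± 0.17), as did Calr, a calcium-binding chaperone. Of 28 adrenergic, muscarinic and cAMP genes, Adrb1 alone was under 0.05. This beta-adrenergic receptor, the main one of heart muscle, had values of 194, 211, 229 and 220 in GX libraries, against 270, 305 and 293 in WT libraries (-0.44 ± 0.13). No GX library reached a WT library for Adrb1, and its value was -0.29 with the covariate and -0.34 within set 148.

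The intercalated disc list had 3 of 20 genes under 0.05, and 19 of its 20 intervals lay within 2-fold. Dsg2, the desmoglein of cardiac desmosomes, had values of 1041, 870, 914 and 887 in GX libraries, against 1035, 1246 and 1184 in WT libraries (-0.32 ± 0.09). The WT library of set 148 fell within the GX range, and the value within that set was -0.16. Dsg2 also had a lower mean in GX under MRL5 (-0.24 ± 0.10). Ctnna3, the alpha-catenin of heart muscle that links desmosomes and adherens junctions, had values of 371, 375, 368 and 344 in GX libraries, against 544, 389 and 491 in WT libraries (-0.37 ± 0.17). Ctnnb1, the beta-catenin of adherens junctions and Wnt signalling, had values of 2143, 2122, 2155 and 2220 in GX libraries, against 2048, 1843 and 1743 in WT libraries (0.20 ± 0.08). Ctnna3 and Ctnnb1 did not overlap between the groups, and they lay in opposite directions. The gap junction gene Gja1 differed by 0.10 (-0.21 to 0.41).

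**Figure D2:**
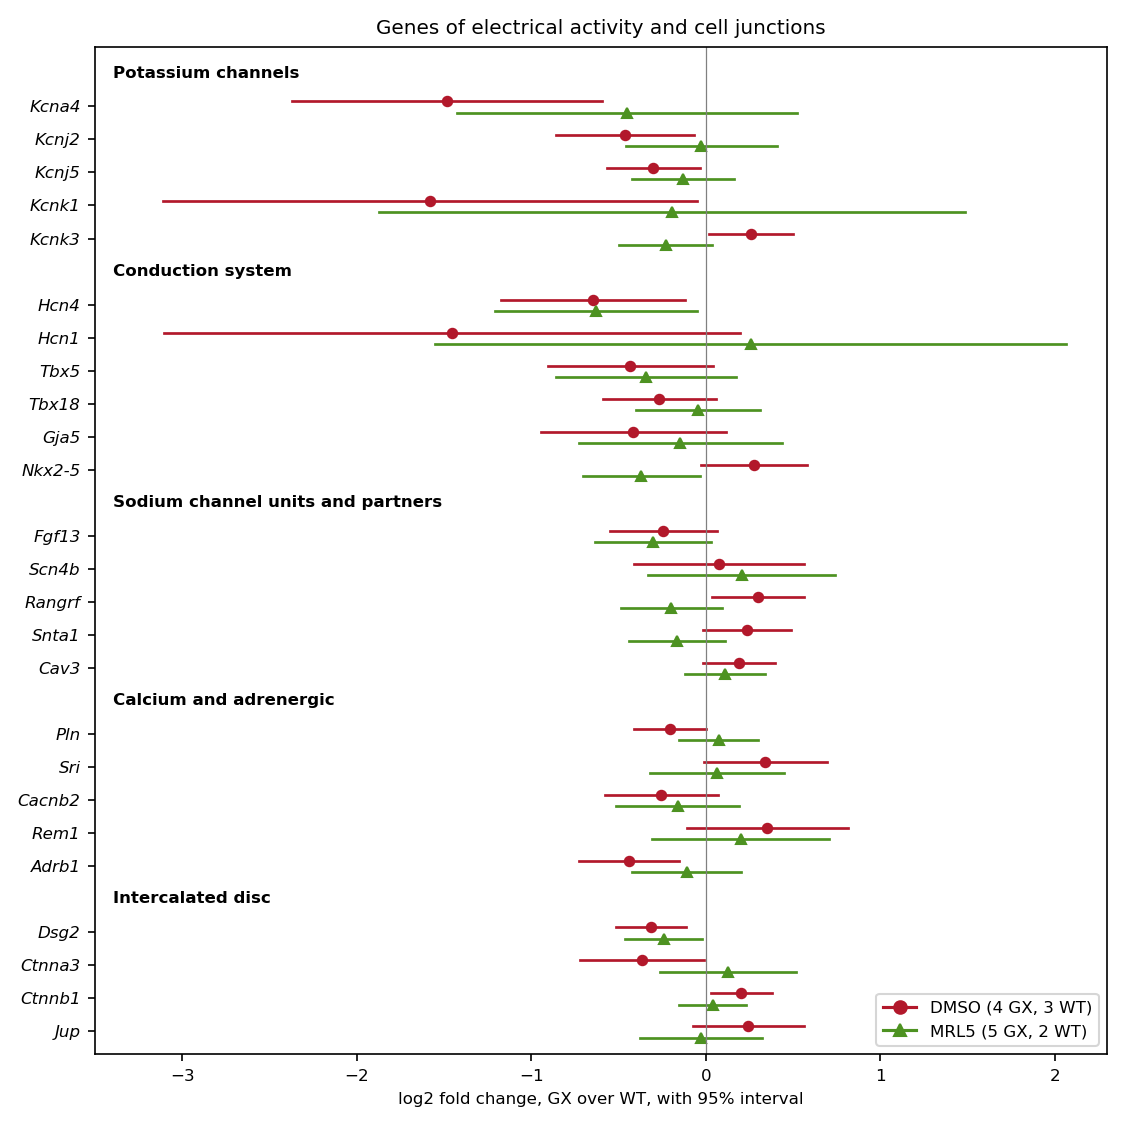
Log2 fold change of GX over WT (x axis) with its 95% interval for genes of electrical activity and cell junctions, under DMSO (circles) and under MRL5 in other mice (triangles). Hcn4 and Dsg2 lie below 0 in both, while Kcnk3, Rangrf and Nkx2-5 change side.

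Sarcomere genes had higher values in GX in 19 of 25 cases with a median of 0.09, which was -0.01 with library set as a covariate and -0.01 with equal column sums. Equal column sums put the median of all genes at -0.11. Fbxl22, given above, and Myom1, which crosslinks thick filaments at the M-band, had a p under 0.05 with higher values, and Mylk3, the kinase of the ventricular light chain, with lower values. Myom1 had values of 23394, 21688, 21768 and 24314 in GX libraries, against 23232, 15202 and 17992 in WT libraries (0.30 ± 0.13). The WT library of set 148 lay inside the GX range, and the value within that set was -0.03. Among genes of the fetal program, Acta1, the skeletal alpha-actin that reappears in loaded hearts, had values of 4907, 5947, 3209 and 7308 in GX libraries, against 4574, 2388 and 1454 in WT libraries (1.02 ± 0.43). The groups overlapped at the WT library of set 148, and the value within that set was 0.16. Nppb, the natriuretic peptide of stretched ventricles, had values of 649, 2723, 2108 and 2651 in GX libraries, against 434, 989 and 374 in WT libraries (1.70, 95% interval -0.04 to 3.44). One GX library lay among the WT libraries for Nppb, and the value with the covariate was 1.66. Cish, a feedback inhibitor of cytokine signalling, had values of 1853, 1134, 1917 and 1774 in GX libraries, against 2089, 2247 and 2680 in WT libraries (-0.51 ± 0.21).

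Serum response factor binds the CArG box in the promoters of many muscle genes, and these 3 genes are shown because they led the contractile genes and carry a match. The windows are RefSeq promoter sequence of build GRCm38.p6, 60 bases each, written 5′ to 3′ on the strand of the gene with the CArG box in capitals (a pair of C, then a run of A or T, then a pair of G, the same on both strands).
Fbxl22 (chr9:66514781-66514840, minus strand): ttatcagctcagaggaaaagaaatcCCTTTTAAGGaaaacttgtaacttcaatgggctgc
Acta1 (chr8:123894814-123894873, minus strand): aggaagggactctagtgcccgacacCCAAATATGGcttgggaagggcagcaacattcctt
Myom1 (chr17:71019433-71019492, plus strand): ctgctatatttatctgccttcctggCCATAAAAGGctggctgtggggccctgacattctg
A CArG box stood in the 250 bases before the start of 5 of 21 sarcomere genes with a RefSeq promoter, against 1.38% of the 10683 symbols of the table with one. The 5 are Actc1, Fbxl22, Ldb3, Myl3 and Myom1, and Acta1, given above with the fetal program, is not among them. A match is a run of letters and not a measured binding site.

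As deposited, most genes of oxidative phosphorylation and of the ribosome had a GX mean above the WT mean, and their list medians were smaller with equal column sums, where the median of all genes was -0.11. Of 37 nuclear genes of oxidative phosphorylation, 31 had a positive fold change, 6 had a p under 0.05 with higher values and 0 with lower values, and the median log2 fold change was 0.15. Cycs, the electron carrier cytochrome c, had values of 7374, 8528, 7540 and 8972 in GX libraries, against 7144, 6272 and 5750 in WT libraries (0.34 ± 0.11). Uqcrq, a subunit of complex III, had values of 10200, 9835, 8600 and 15957 in GX libraries, against 8585, 6141 and 7250 in WT libraries (0.58 ± 0.20). GX replicate 4 was the highest of the 7 libraries for 30 of the 37 genes, and WT replicate 2 the lowest for 27. With library set as a covariate the median was 0.04, without GX replicate 4 it was 0.07, and with equal column sums it was 0.05. Among the 13 mitochondrially encoded genes, mt-Co2, a core subunit of cytochrome c oxidase, had a p under 0.05, with values of 787507, 1030320, 816056 and 1050950 in GX libraries, against 923965, 586717 and 586455 in WT libraries (0.42 ± 0.18). Its WT library of set 148 lay among the GX libraries, and the covariate brought the difference to 0.04.

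Of 33 genes for cytosolic ribosomal proteins 29 had a positive fold change, and the median was 0.20. Rpl11, Rpl13, Rpl18, Rps19 and Rps20 had a p under 0.05, all with higher values. Rps20 had values of 1124, 1074, 1090 and 1661 in GX libraries, against 1030, 891 and 813 in WT libraries (0.42 ± 0.15). Rpl18 had values of 3499, 2668, 3063 and 3931 in GX libraries, against 2612, 2460 and 2393 in WT libraries (0.39 ± 0.15). GX replicate 4 was the highest library for 30 of the 33 genes, and without it the median was 0.07. With the covariate the median was 0.15, and with equal column sums it was 0.10. For the mitochondrial ribosome, 24 of 26 genes lay above 0 and the median was 0.16, 3 of them with a p under 0.05 (Mrpl12, Mrps7 and Mrps12), and GX replicate 4 was the highest for 22. That median was 0.08 without GX replicate 4, 0.08 with the covariate and 0.07 with equal column sums. Copies of ribosomal protein genes elsewhere in the genome can share their reads, so these values are uncertain to that extent. Of 25 genes of glucose uptake and glycolysis, 4 had a p under 0.05, all with higher values: Gpi1, Pfkp, Pgam2 and Tpi1, with fold changes between 0.24 and 0.38 and between 0.09 and 0.20 with the covariate. The median of the glycolysis list was 0.06, against -0.02 with the covariate and -0.03 with equal column sums. For all genes the median was -0.02 as deposited and -0.11 with equal column sums. The part of single libraries in these lists was not tested beyond leaving each out. Fatty acid oxidation had 1 of 32 genes under 0.05, Mlycd, which breaks down the malonyl-CoA that blocks fatty acid entry into mitochondria (0.35 ± 0.15), and the median of that list was 0.06, or -0.04 both with the covariate and with equal column sums.

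**Figure D3:**
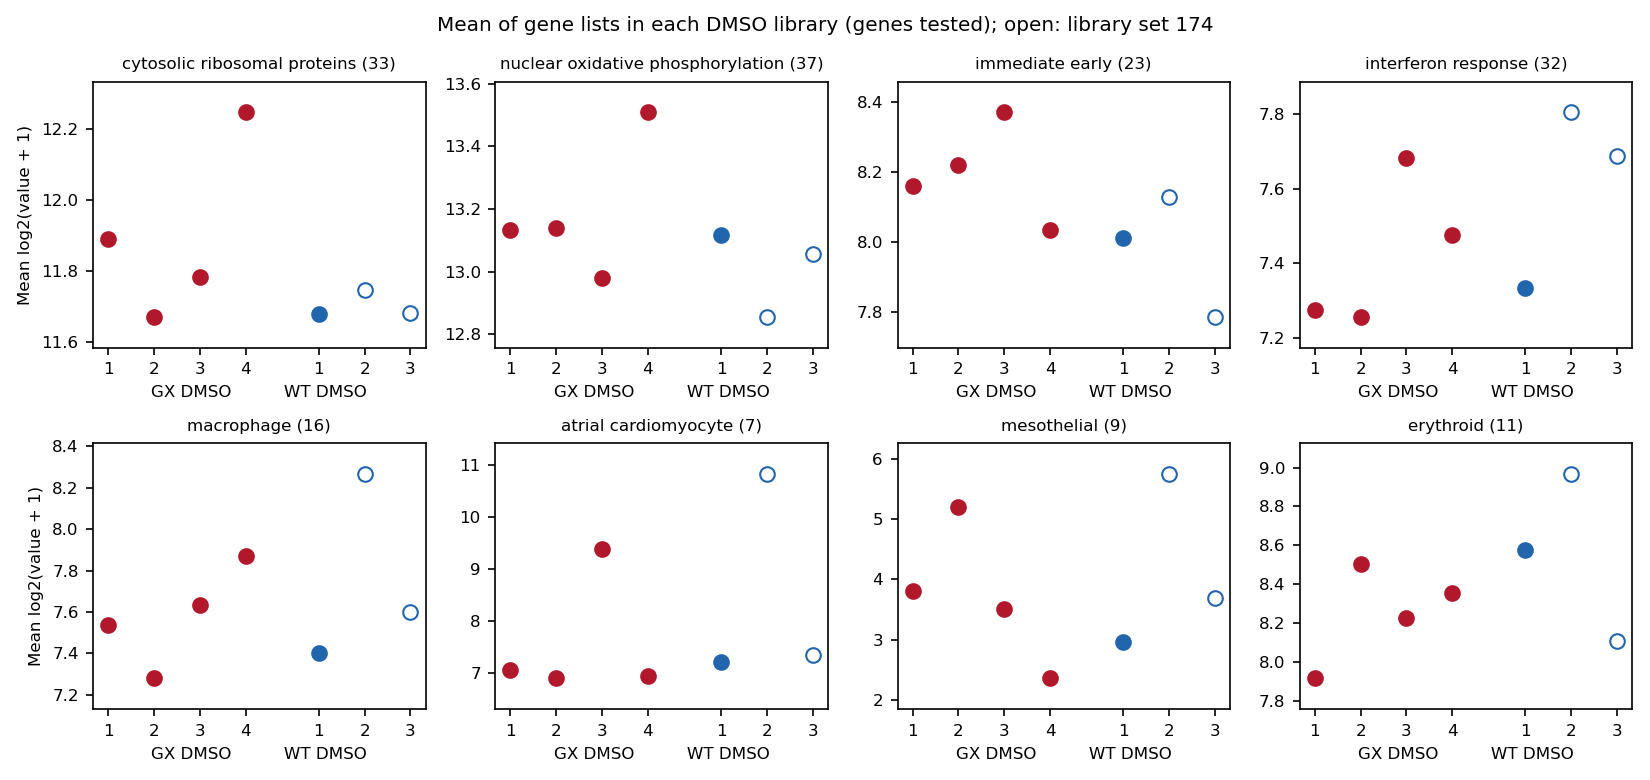
Mean of log2(value + 1) over the tested genes of 8 lists (y axis of each panel) in each DMSO library, GX replicates at the left and WT replicates at the right, with open points for set 174. GX replicate 4 lies highest for both the ribosomal and the oxidative phosphorylation lists, and GX replicate 3 and WT replicate 2 lie highest for the atrial list.

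Immediate early genes, which answer stress and stretch within minutes, had a positive fold change in 20 of 23 cases and a median log2 fold change of 0.29, and 3 had a p under 0.05. Klf4 had values of 268, 261, 325 and 252 in GX libraries, against 216, 241 and 184 in WT libraries (0.37 ± 0.14). Klf2, a factor of endothelial cells under shear, had values of 1427, 892, 1484 and 1409 in GX libraries, against 770, 1054 and 886 in WT libraries (0.51 ± 0.22). Nr4a1, an orphan nuclear receptor, had values of 122, 246, 486 and 266 in GX libraries, against 92.7, 124 and 121 in WT libraries (1.15 ± 0.51). Klf4 and Klf6 were the members without overlap. The list's mean was lowest in WT replicate 3, its median was 0.17 without that library, and with library set as a covariate the median was 0.001. With set and index series as the covariate the median was -0.18. Egr1, a zinc-finger factor of the same class, overlapped, at 182, 330, 326 and 210 in GX libraries and 230, 293 and 200 in WT libraries.

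Glucocorticoid targets had 2 genes with higher and 2 with lower values under 0.05 among 23. Lcn2, given above and also on the inflammatory and neutrophil lists, was 1 of those with lower values. Sgk1, a kinase that raises ion channel activity, had values of 396, 468, 496 and 429 in GX libraries, against 309, 302 and 317 in WT libraries (0.53 ± 0.18), and its value was 0.53 within set 148 and 0.23 with the covariate. Cebpd had values of 358, 244, 324 and 275 in GX libraries, against 122, 232 and 172 in WT libraries (0.81 ± 0.32). Fkbp5, a chaperone that dampens the receptor, had values of 463, 237, 244 and 294 in GX libraries, against 436, 439 and 375 in WT libraries (-0.48 ± 0.19). Members of the list thus lay on both sides, and its median was 0.20, or -0.11 with the covariate and 0.0006 without GX replicate 1. Of 20 p53 targets, 11 had a positive fold change and 9 a negative one, and the median was 0.006. The pro-apoptotic genes Bbc3 (0.62 ± 0.25) and Bax (0.40 ± 0.19) had a p under 0.05 with higher values. For Bax the lowest GX value was 230.3 and the highest WT value 230.2, so the groups barely separated. Of 22 tested NRF2 targets and antioxidant enzymes, 8 had a positive fold change and 14 a negative one, and the median was -0.04. Gpx4, which detoxifies lipid peroxides, had higher values (0.42 ± 0.17) and Gclm, which makes glutathione, lower values (-0.35 ± 0.14). Heat shock genes, hypoxia targets and the unfolded protein and integrated stress response held no gene under 0.05 among 20, 19 and 23 tested. Of 20 circadian genes 16 had lower values in GX, with a median of -0.15, or -0.13 with the covariate. Hlf, an output factor of the clock, was under 0.05 (-0.26 ± 0.11).

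Interferon-inducible genes had lower values in GX in 24 of 32 cases with a median of -0.17, and 2 had a p under 0.05. Irgm1, a GTPase of cell-autonomous defence, had values of 329, 299, 437 and 351 in GX libraries, against 415, 517 and 592 in WT libraries (-0.52 ± 0.18). Iigp1, a related GTPase, had values of 603, 343, 775 and 456 in GX libraries, against 598, 1184 and 1598 in WT libraries (-1.001 ± 0.38). The WT libraries of set 174 were the highest for both genes. WT replicate 2 was the highest library for 17 of the 32 genes, and with library set as a covariate the median of the list was 0.07, while without WT replicate 2 it was -0.02. The same library stood out for macrophage markers. Cd163, a scavenger receptor of resident macrophages, had values of 536, 454, 577 and 468 in GX libraries, against 539, 955 and 718 in WT libraries, and Mrc1, a mannose receptor, had values of 297, 281, 315 and 251 in GX libraries, against 366, 559 and 343 in WT libraries. WT replicate 2 was the highest library for 10 of 16 macrophage markers, and the mean of the list lay between 7.28 and 7.87 in GX libraries and between 7.40 and 8.27 in WT libraries. Of the 16 markers, 6 had a positive fold change and 10 a negative one. The median of the macrophage list was -0.09, against 0.21 with the covariate, 0.18 within set 148 and 0.18 without WT replicate 2. The part of macrophages in the interferon genes was not tested.

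The promoters of 2 interferon-inducible GTPases are shown for the motif that interferon regulatory factors bind, searched as GAAANNGAAA on both strands with each match in capitals, in RefSeq promoter windows of 60 bases (GRCm38.p6, strand of the gene).
Irgm1 (chr11:48871421-48871480, minus strand): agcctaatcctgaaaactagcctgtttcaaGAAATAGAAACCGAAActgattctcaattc
Igtp (chr11:58199496-58199555, plus strand): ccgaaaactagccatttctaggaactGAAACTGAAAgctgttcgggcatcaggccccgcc
The capitals of Irgm1 hold 2 overlapping matches. The motif stood in the 250 bases before the start of 14 of 25 genes of the list with a RefSeq promoter, against 3.35% of the 10683 symbols of the table with one. Irgm1 and Igtp are among these 14, while Iigp1, given above with a p under 0.05, is not. Igtp had values of 354, 200, 330 and 210 in GX libraries, against 295, 520 and 856 in WT libraries (-0.94, 95% interval -1.93 to 0.06).

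Proliferation genes were low in the adult ventricle and lay below WT without overlap for 5 of 27 genes, Mki67, Ccna2, Plk1, Mcm4 and Rrm2. Mki67, the marker of cycling cells, had values of 31.0, 30.9, 50.6 and 31.9 in GX libraries, against 58.3, 57.7 and 63.1 in WT libraries (-0.74 ± 0.26), and was the only one under 0.05. Its value was -0.64 with the covariate and -0.71 within set 148. The median of the proliferation list was -0.18, or -0.10 with the covariate. Of 24 tested genes of BMP and TGF-beta signalling, 10 had a positive fold change and 14 a negative one. Their median was -0.04, or 0.11 with the covariate, and 2 were under 0.05 with higher values and 1 with lower values. Bmp6, a ligand made by endothelial cells, had values of 144, 131.4, 171 and 195 in GX libraries, against 134, 116 and 88.8 in WT libraries (0.50 ± 0.18). Id1, a direct target of BMP signals, had values of 1054, 971, 1150 and 1252 in GX libraries, against 834, 873 and 902 in WT libraries (0.34 ± 0.13). Bmp4, another ligand, had lower values in GX (-0.54 ± 0.21). Among inflammatory genes Lcn2 alone was under 0.05.

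Of the other cell types, the means of the atrial and mesothelial lists spread most among the 7 libraries. On the scale of log2(value + 1), the atrial mean lay between 6.89 and 9.39 in GX libraries and between 7.21 and 10.84 in WT libraries, and the mesothelial mean between 2.36 and 5.203 in GX libraries and between 2.97 and 5.75 in WT libraries. Krt8, a keratin of the heart's surface layer, stood at 7.06, 18.2, 0 and 4.45 in GX libraries and at 2.299, 49.8 and 88.6 in WT libraries. Car3, a marker of fat cells, stood at 11.0, 17.04, 128.9 and 7.85 in GX libraries and at 22.4, 447 and 20.9 in WT libraries. The fat cell list as a whole went the other way, with a positive fold change for 5 of 7 tested markers. Its median was 0.15, or 0.26 with the covariate. Of the 9 tested mesothelial markers, 4 had a positive fold change and 5 a negative one. Erythroid genes had lower values in GX for 9 of 11, and WT replicate 2 was the highest for 9 of them. None of the mesothelial, adipocyte, erythroid, atrial, smooth muscle, lymphocyte or neuronal markers had a p under 0.05. Endothelial markers had a median of 0.15, which was 0.05 with library set as a covariate, -0.04 within set 148, 0.06 with equal column sums and 0.08 without WT replicate 3. Tie1 was the one under 0.05 (0.35 ± 0.11). Cxcr2, a chemokine receptor of neutrophils, was low but free of overlap, at 5.64, 13.9, 13.9 and 8.49 in GX libraries and 2.78, 2.36 and 3.74 in WT libraries (1.47 ± 0.47). It had the highest fold change of the 5 tested neutrophil markers, of which 2 lay above 0 and 3 below. Their median was -0.02, and 1 was under 0.05 in each direction, Cxcr2 with higher and Lcn2 with lower values. Hey2, a factor of ventricular identity, stood at 68.6, 62.8, 85.2 and 72.1 in GX libraries and at 123, 111 and 78.8 in WT libraries (-0.51 ± 0.23), while the mean of the ventricular list lay between 12.83 and 12.98 in GX libraries and between 12.82 and 12.99 in WT libraries. Without GX replicate 3 and WT replicate 2, the libraries of highest Myl7, limma gave 0 genes under an adjusted p of 0.05 and 557 under an unadjusted one.

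**Figure D4:**
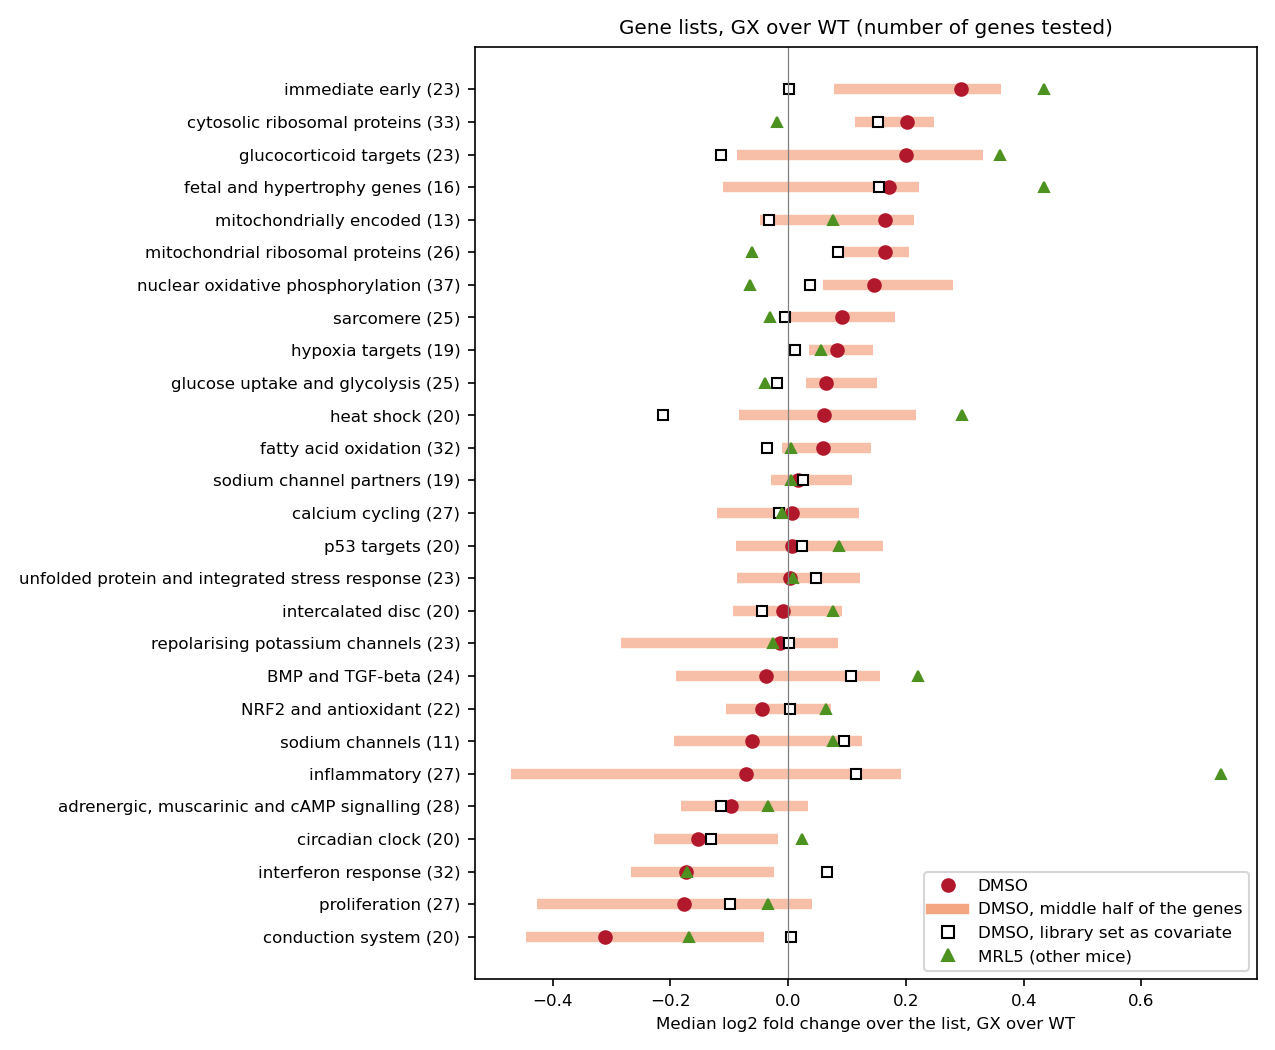
Median log2 fold change of GX over WT (x axis) for 27 gene lists under DMSO (circles, with bars from the lower to the upper quartile of the genes), under DMSO with library set as a covariate (squares) and under MRL5 in other mice (triangles). The ribosomal and oxidative phosphorylation lists lie above 0 under DMSO and just below it under MRL5, and the interferon list lies at the same place in both arms but above 0 with the covariate.

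The 7 mice that received MRL5 gave a second genotype contrast in animals that the DMSO contrast did not use. With limma, 0 genes passed the test there (smallest adjusted p 0.225), with 932 at an unadjusted p under 0.05 (6.58%), and the mean of both treatments, which shares the DMSO libraries, gave 0 as well, with 787 at an unadjusted p under 0.05 (5.56%). Without WT replicate 2 of the MRL5 mice, 63 genes passed under MRL5 and 13 in the mean of both treatments, and without GX replicate 4 of the MRL5 mice 4 passed in the mean. Of the 417 genes with higher values in GX under DMSO at a p under 0.05, 38.4% had the same sign under MRL5, and of the 384 with lower values 55.7% did, against 46.8% of all 14155 genes. Under MRL5, 31 of the 801 genes had a p under 0.05 with the same sign and 31 with the opposite sign. Genes of the DMSO ranking as a whole (46.7%) thus kept their sign about as often as all genes did. The arms also differ in the compound.

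Of the 24 genes named first, 12 had the same sign under MRL5, and Dusp14 and Cep162 lay below WT without overlap in both arms. Tial1 was the only one of them with a p under 0.05 and the same sign, at 439.5, 388, 438, 410 and 371 in GX MRL5 libraries and 325 and 373 in WT MRL5 libraries (0.23 ± 0.10). Lcn2 went the other way, at 95.8, 161, 229, 386 and 215 in GX MRL5 libraries and 32.7 and 63.2 in WT MRL5 libraries (2.09 ± 0.43), and the difference between the arms was -3.54 ± 0.58 (limma interaction, adjusted p = 0.185, the smallest of all genes). Ppp1r9a, a scaffold of actin and phosphatases, also changed sign, with 0.44 ± 0.16 under MRL5 against -0.54 ± 0.14 under DMSO. The median of the interferon list was -0.17 under MRL5 as under DMSO, that of the ribosomal list was -0.02 and that of oxidative phosphorylation -0.07. Immediate early genes had a median of 0.44 under MRL5, with 20 of 23 positive, and glucocorticoid targets 0.36, with 17 of 23. The means of these lists were higher in every GX MRL5 library than in both WT MRL5 libraries. Of the glucocorticoid targets, 8 were under 0.05 with higher values and 0 with lower, against 509 and 423 of all 14155 genes. The DMSO medians of these lists with the covariate were 0.001 and -0.11. For the interferon list the 2 WT MRL5 libraries lay on either side of all GX MRL5 libraries. Their list means were 8.19 and 7.25, against 7.36 to 7.63 in GX MRL5 libraries, so the value under MRL5 rests on WT replicate 1. The difference between the arms was not tested for the lists, and 0 genes passed the test of the interaction, against 904 at an unadjusted p under 0.05. With column sums made equal, 1 gene passed it (limma adjusted p = 0.0149), and so did 1 with mitochondrial genes left out of the sums (adjusted p = 0.0327). Without WT replicate 2 of the MRL5 mice, which leaves a single WT library in that arm, 27 genes passed the interaction, with a smallest adjusted p of 1.02e-05. With GX replicate 1 of the DMSO mice, GX replicate 4 of the DMSO mice or GX replicate 1 of the MRL5 mice left out, 1 gene passed in each case.

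**Figure D5:**
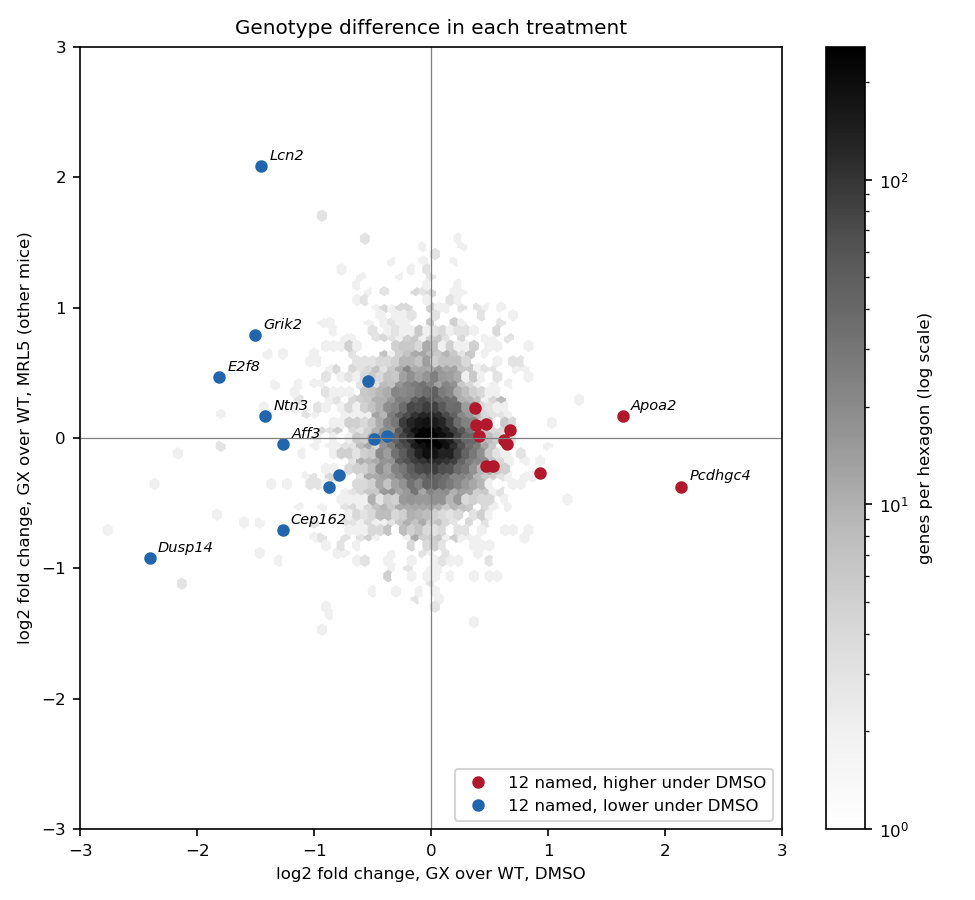
Log2 fold change of GX over WT under DMSO (x axis) and under MRL5 in other mice (y axis) for the tested genes, shaded by the number of genes per hexagon, with 18 genes outside the axes. The 24 genes chosen under DMSO (red higher, blue lower) spread around 0 on the y axis, and Lcn2 lies at -1.45 under DMSO and 2.09 under MRL5.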

How the data were processed

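Polyadenylated RNA of mouse ventricles was sequenced as paired ends. The authors deposited 1 signal value per gene and library, in scaled reads per base per the file headers. Reads were quantified with kallisto and sleuth 0.3.0 on GRCm38, per the submitters' processing notes. The sources used here do not say how values were scaled or which annotation release served. Among values under 30, between 24.0% and 27.0% per library were whole multiples of the best fitting step within 0.05, so no reads or depth were recovered, and no interval from counts is given.

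Of 14307 entries, 146 repeated the 14 values of another entry and were left out. Symbols written as dates (21) were restored from GENCODE M21, which also gave positions. Genes with a value of at least 1 in at least 2 of the 7 DMSO libraries were tested on log2(value + 1), which understates fold changes of low genes. limma 3.58.1 in R 4.3.3 (trend, robust) fitted 1 mean per group to all 14 libraries (residual degrees of freedom 10). Tests were two-sided, with Benjamini-Hochberg adjustment over 14155 genes and a threshold of 0.05. SE and intervals are limma's. The p-values rest on the spread between mice within groups, pooled over all 4 groups, so the MRL5 mice enter the spread used under DMSO. The fit was tested on simulated data. All 5 GX mice with MRL5 that the labels give were used, where the series' own description counts 4.

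Named genes are the 12 of smallest p in each direction whose groups do not overlap, without predicted genes and shared entries, and up to 4 members of smallest p per list. Other genes named were chosen after their values were seen. The members and the 41 lists were chosen with earlier results of these data known, so counts over lists are descriptions. RefSeq promoters matched 25 interferon and 21 sarcomere genes. Alternatives were other scalings, pseudocounts, filters and variance estimates, the library set as a covariate, set 148 alone, only the groups compared, and each library left out. Results of some single genes, and a planned description by position, are not reported here. Tables and figures were made with Python 3.11.15.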

Additional observations from a re-analysis of the deposited data

Results flagged for a closer look

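Among the 140 genes and gene lists named for the 4 GX libraries under DMSO, 8 had a library at one end whose gap to the nearest other, divided by the whole range, was above Dixon's critical value at 95% for 4 samples. Chance flags about 1 in 20 groups. The ratio was 0.943 for the lowest library of Cep162, 0.852 for the lowest of Cish and 0.898 for the lowest of Klf2. It was 0.895 for the highest library of Rps20, 0.940 for the highest of Mki67 and 0.865 for the highest of Mcm4. For the means of the marker lists it was 0.837 for the highest library of the ventricular list, GX replicate 4, and 0.938 for the highest of the atrial list, GX replicate 3. Cep162 differed by little among the GX libraries, so its ratio rests on a narrow range of 30.9 to 36.1. GX replicate 4 was also the highest library for Rps20, and GX replicate 3 for Mki67.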

How the results depend on the processing

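Under DMSO, 0 genes had an adjusted p under 0.05 in each of the alternatives run. The genes at an unadjusted p under 0.05, 801 as reported, numbered 368 with library set as a covariate, 411 with set and index series, 333 within set 148, 436 without WT replicate 3 and 557 without both libraries of highest Myl7, an alternative chosen after seeing the data. With one DMSO library left out at a time they ranged from 436 to 953. They numbered 946 with only the DMSO libraries in the fit, where the smallest limma adjusted p was 0.0836. The split of higher and lower genes was 476 and 350 with median ratios, 94 and 720 with equal column sums and 271 and 514 with mitochondrial genes left out of the sums, against 417 and 384 as reported. Under MRL5, 1 gene passed when only the groups compared entered the fit, and the number ranged from 0 to 63 with one library left out at a time, with 63 without WT replicate 2, which leaves 1 WT library assumed to vary like the other groups. In the mean of both treatments the number ranged from 0 to 13, and the cause was not tested. Of 38 list medians, 20 changed sign with library set as a covariate, 21 within set 148, 11 with equal column sums and 11 without WT replicate 2. No paired analysis was possible because the replicate numbers follow the order of the samples and pair no mice. The read depth is unknown, so counting error could not be set apart from the spread between mice, and genes with values under 30 have the widest intervals.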
